A study of Mus musculus with 2 samples.

Results

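The genes of protein processing in the endoplasmic reticulum (ER) were examined in RNA sequencing of primary chondrocytes, the cells of cartilage. They are the rows of the deposited gene table whose pathway annotation holds the KEGG entry for protein processing in the ER (ko04141), and 162 of the 22156 rows met this rule. One library came from control mice and one from *Myl3*-KO mice, whose cells lack the myosin light chain gene *Myl3*. Both were primary chondrocytes of newborn mice, from rib cartilage by the labels and from rib and articular cartilage by the study's general isolation method, untreated and grown as a monolayer in serum. *Myl3*-KO mice carry a Cre driven by the *Col2a1* promoter that deletes floxed *Myl3* in *Col2a1*-expressing cells, and the controls are floxed littermates according to the study's methods, while the sample labels give their genotype as WT. The sources used here do not say how many animals went into a library.

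The values were expected counts, the reads estimated to come from each gene, with a total of 17612435 for the control library and 13477977 for the *Myl3*-KO library. *Myl3* had 0 counts in both libraries, so it could not check the labels. Of the 16 chondrocyte markers found in the table, *Acan*, *Matn1*, *Matn3* and *Hapln1* had 0 counts in both libraries. *Col2a1* had 30 counts in control cells and 27 in *Myl3*-KO cells, *Sox9* had 866 and 480, and *Col11a2*, the 1 gene of the list that was called, had 293 and 395. The list took 0.0128% of the control counts and 0.0129% of the *Myl3*-KO counts. The 8 fibroblast markers took 1.79% and 2.14%, led by *Col1a2* with 211652 and 189213 counts. The cells are therefore called chondrocytes after their label only. Immune markers summed to 39.0 and 33 counts and endothelial markers to 7 and 12, and the defining muscle and macrophage genes *Myod1* and *Adgre1* had 0 counts in both libraries. In such bulk samples, fewer cells of a type and less RNA per cell cannot be told apart.

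Secreted and membrane proteins enter the ER through the Sec61 translocon, receive N-linked glycans from oligosaccharyltransferase, and fold with the help of chaperones and disulfide-forming enzymes. Folded proteins leave in COPII vesicles, and misfolded ones are returned to the cytosol and degraded by the proteasome, a route called ER-associated degradation (ERAD). When unfolded proteins accumulate, the sensors IRE1, PERK and ATF6 start the unfolded protein response, which raises chaperones and ERAD genes and slows translation through phosphorylation of eIF2α. Chondrocytes secrete large amounts of collagen and depend on this machinery.

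The ER stress response element (ERSE), the site through which ATF6 and XBP1 raise chaperone genes, is printed for the genes that carry it, since it marks the classical readout genes of the unfolded protein response. It was searched on both strands as CCAAT, 9 unspecified bases and CCACG, in the RefSeq promoters from 250 bases before to 50 bases after the start of transcription (GRCm38.p6). Promoters were matched for 131 of the 162 genes. The element was in 8 of their 158 promoters (5.06%), against 0.119% of all 32851 promoters. Capitals mark the 2 ends of the element, which read CGTGG and ATTGG where it lies on the opposite strand. Each stretch is written 5′ to 3′ on the strand of its gene.
*Hspa5* (chr2:34772020-34772048, plus strand): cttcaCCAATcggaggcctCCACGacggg
*Hsp90b1*, farther site (chr10:86705618-86705676, minus strand): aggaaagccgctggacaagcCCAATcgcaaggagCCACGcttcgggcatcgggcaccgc
*Hsp90b1*, nearer site (chr10:86705513-86705571, minus strand): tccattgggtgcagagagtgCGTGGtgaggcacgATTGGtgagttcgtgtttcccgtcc
*Calr* (chr8:84847055-84847113, minus strand): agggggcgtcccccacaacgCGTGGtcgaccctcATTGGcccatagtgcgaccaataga
*Canx* (chr11:50325780-50325838, minus strand): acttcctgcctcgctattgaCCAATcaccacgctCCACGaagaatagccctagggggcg
*Pdia6* (chr12:17266471-17266529, plus strand): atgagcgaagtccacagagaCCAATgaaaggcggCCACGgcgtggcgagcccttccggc
*Dnajc3* (chr14:118937807-118937865, plus strand): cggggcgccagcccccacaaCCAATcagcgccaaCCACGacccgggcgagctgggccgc
*Syvn1* (chr19:6046512-6046570, plus strand): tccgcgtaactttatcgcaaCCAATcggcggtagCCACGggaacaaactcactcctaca

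The 8th gene with the element, *Derl3*, had 2 counts in control cells and 0 in *Myl3*-KO cells. A related form, ERSE-II (ATTGG, 1 unspecified base, CCACG), was in 2 genes, *Dnajb11* and *Herpud1*, and in 0.0365% of all promoters. That of *Herpud1*, a ubiquitin-like protein of the degradation complex, is shown because this gene also holds the amino acid response element (TTGCATCA) farther upstream.
*Herpud1* (chr8:94386357-94386407, plus strand): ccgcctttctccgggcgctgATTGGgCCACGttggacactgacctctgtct

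Counts divided by the library totals gave a log2 ratio for each gene, positive where *Myl3*-KO was higher. A minimum of 10 counts summed over both libraries left 12431 genes to test, and 152 of the 162 ER genes were among them. The test was a two-sided exact binomial test on the rounded counts, with Benjamini-Hochberg adjustment over all genes tested. An adjusted p under 0.05 is called beyond counting error, and a gene was called when its difference was in addition at least 1.5-fold. There was 1 library per genotype, so the test speaks for these libraries and not for the genotypes, and replicate error is unknown for every value given here. Intervals are 95% Clopper-Pearson intervals of the counts, and cover counting error only. Of the 10 genes not tested, 6 had 0 counts in both libraries, among them *Cryaa*, *Dnajc5b*, *Dnajc5g* and *Sel1l2*, and *Lman1l*, *Hspa1a*, *Ube2d2b* and *Derl3* had few.

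The ER genes differed little between the libraries, and the small differences lay more often below than above the control. Only *Ero1lb*, one of the ER oxidases, was called higher, which is 1 of 152 tested against 3.14% of all genes tested. Of the ER genes 0 were called lower, against 0.925% of all genes, and 0 passed an unadjusted p of 0.05 at 1.5-fold in that direction. Beyond counting error, 25 ER genes were higher and 54 were lower, which is 16.4% and 35.5% of those tested. The background was 18.6% higher and 16.8% lower over all genes tested. ER genes are well counted, and well-counted genes pass more often. Among genes whose counts summed to 1000 or more, 23 of 123 ER genes were higher and 52 were lower, against a background of 24% and 27.3%.

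The differences behind these counts were small. A log2 ratio of at least 0.32 in size was seen in 13 of the 152 ER genes (8.55%), against 24.3% of all genes tested, and a change of at least 2-fold in 0, against 3.35%. The median log2 ratio was -0.05 over the ER genes and 0.02 over all genes tested. The ratios ran from -0.71 (*Fbxo2*, 30 and 14 counts) to 0.85 (*Ero1lb*), and the ER genes together took 3.04% of the control counts and 2.90% of the *Myl3*-KO counts. When edgeR's exact test was given an assumed coefficient of variation of 0.2 between replicates, 0 of the 152 ER genes had an adjusted p under 0.05, and 0 had an unadjusted p under 0.05. That outcome rests on the assumed value, which 1 library per genotype could not supply. With it only 4 of the 12431 genes tested passed the adjusted limit.

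**Figure D1:**
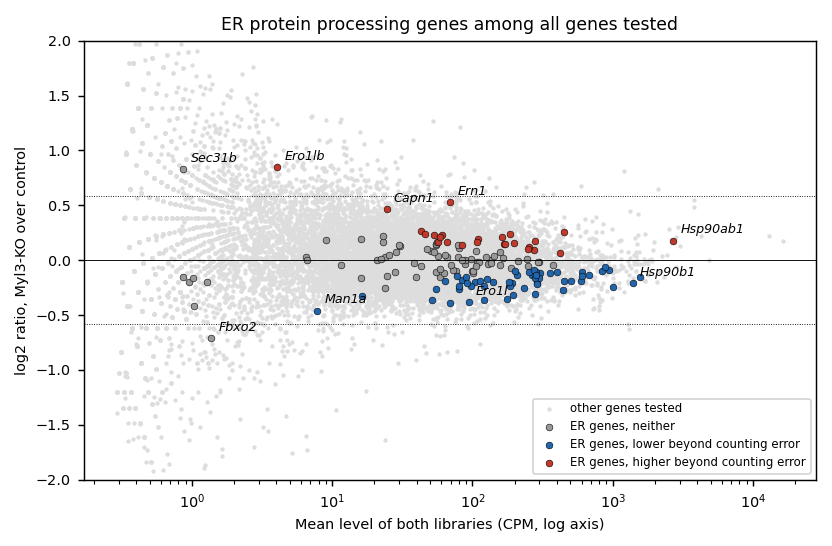
Mean level of each gene over both libraries (CPM, counts scaled to a common library total, log axis) against its log2 ratio, *Myl3*-KO over control. Each large point is 1 of the 152 ER genes tested and each small gray point another gene, dotted lines mark 1.5-fold, and genes outside the vertical axis are not drawn. The ER genes lie close to 0, with *Ero1lb* at 0.85 and *Ern1* at 0.53 above most others.

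Protein entry into the ER was among the steps whose genes lay lower in *Myl3*-KO. Of the 11 translocation genes tested, 6 were lower and 1 higher beyond counting error (54.5% and 9.09%, against 16.8% and 18.6% of all genes tested). Of genes with 1000 or more counts, 27.3% were lower and 24% higher, and all 11 had that many. Their median log2 ratio was -0.15. *Ssr4*, a subunit of the translocon-associated protein (TRAP) complex, had 1024 counts in control cells and 611 in *Myl3*-KO cells, a log2 ratio of -0.36 (interval -0.51 to -0.21). The other TRAP subunits were also lower beyond counting error, with *Ssr2* at -0.31 (5469 and 3371 counts), *Ssr3* at -0.19 (9418 and 6303) and *Ssr1* at -0.15 (11150 and 7704). All 4 TRAP genes thus lay below the control, a grouping made after the values were seen. Of the 4 Sec61 channel genes, *Sec61g* (-0.27) and *Sec61a2* (-0.23) were lower, whereas *Sec61b* (-0.10) and *Sec61a1* (-0.02), the main channel subunit with 5179 and 3907 counts, were within counting error. *Sec61a2* overlaps *Nudt5*, between which reads could have been split. *Sec61a1* depended on the correction for base composition: when the median of all genes in the same of 3 bins of GC content and 3 bins of exon length was subtracted (the GC and length subtraction), its ratio was -0.24, lower beyond counting error. *Sec62*, which helps short and already finished proteins to enter, was the gene higher, with 4268 and 3495 counts (0.10, interval 0.03 to 0.16).

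Every subunit of oligosaccharyltransferase in the pathway was lower in *Myl3*-KO, by small amounts. The enzyme complex transfers the N-linked glycan to the entering chain. *Rpn1*, its ribophorin subunit, differed most, with 8556 counts in control cells and 5419 in *Myl3*-KO cells (log2 ratio -0.27, interval -0.32 to -0.22, 1.21-fold lower). The catalytic subunits *Stt3a* and *Stt3b* had ratios of -0.21 and -0.10. *Dad1*, *Tusc3*, *Ddost* and *Rpn2* lay between these values, at -0.19, -0.17, -0.13 and -0.12. All 7 genes were lower beyond counting error, against 16.8% of all genes tested and 27.3% of genes of 1000 or more counts. Each of the 7 had that many. Their summed share of the library was 0.187% in the control and 0.165% in *Myl3*-KO.

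The chaperones and oxidoreductases of the ER lumen are the best-known targets of the unfolded protein response, and most of them were slightly lower in *Myl3*-KO. Of the 19 genes tested in the group of ER chaperones and their partners, 11 were lower and 2 higher. These are 57.9% and 10.5%, against 16.8% and 18.6% of all genes tested. Among the 17 of 1000 or more counts, 11 were lower and 1 higher (64.7% and 5.88%), against 27.3% and 24% of such genes. The group took 0.685% of the control counts and 0.626% of the *Myl3*-KO counts. *Hspa5*, which encodes the central Hsp70 chaperone BiP, had 12419 counts in control cells and 8628 in *Myl3*-KO cells (log2 ratio -0.14, interval -0.18 to -0.10, adjusted p = 9.39e-11, exact binomial test). *Hsp90b1*, the ER form of Hsp90, had 26290 and 17446 counts (-0.21, interval -0.23 to -0.18). The difference was 1.10-fold for *Hspa5* and 1.15-fold for *Hsp90b1*, far below the 1.5-fold limit of a call.

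BiP works with J-domain partners and exchange factors, and these genes did not move together. *Dnajb11*, a J-domain co-chaperone of the lumen, was lower (1578 and 1067 counts, -0.18). *Dnajc3*, which also restrains PERK, lay at -0.16 with an adjusted p of 0.0619 in the exact binomial test. *Hyou1* and *Sil1*, exchange factors for BiP, had ratios of 0.00 (2394 and 1835 counts) and 0.19 (262 and 229), both within counting error. The reductase *Dnajc10* lay at -0.01 and the J-domain gene *Dnajc1* at 0.11, neither of them beyond counting error. *Dnajc5*, a J-domain gene of the group that is not counted here as a partner of BiP, lay at 0.08, within counting error.

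Disulfide isomerases form and shuffle disulfide bonds, and the genes of their family in the pathway lay below the control. *P4hb*, which is also a subunit of collagen prolyl hydroxylase, had 29234 counts in control cells and 20151 in *Myl3*-KO cells (-0.15, interval -0.18 to -0.12). *Erp29* had 3773 and 2317 counts (-0.32), although it overlaps *Naa25* and *Tmem116* and its reads are uncertain. *Pdia4* (-0.13), *Txndc5* (-0.11), *Pdia3* (-0.09) and *Pdia6* (-0.09) were lower by less. With *Dnajc10* (-0.01) this makes 7 genes below the control, 6 of them beyond counting error, in a grouping made after the values were seen. After the GC and length subtraction *Dnajc10* lay at 0.08, within counting error. *Pdia5*, outside the pathway annotation, had 1003 and 820 counts (0.10), also within counting error.

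The 2 ER oxidases that hand oxidizing equivalents to these isomerases went in opposite directions. *Ero1l*, the widely expressed form, had 1878 counts in control cells and 1102 in *Myl3*-KO cells (-0.38, interval -0.49 to -0.28, 1.30-fold lower). *Ero1lb* had 50.75 and 70 counts (0.85, interval 0.30 to 1.39, 1.80-fold higher, adjusted p = 0.00702, exact binomial test). Per length, the level of *Ero1l* was 33.4 FPKM in the control, and that of *Ero1lb* 0.80 FPKM, so the called gene is the minor form. Of the 31-base words of the *Ero1lb* transcripts, 11.5% also occur in other genes, most in the gene model *Gm18562*. Among the membrane proteins of this group, *Bcap31*, which sorts membrane proteins for export, was lower (-0.21), *Ckap4* of ER sheets was lower (-0.10), and the ribosome-binding *Rrbp1* was higher (4651 and 4023 counts, 0.18). After the GC and length subtraction *Rrbp1* lay at -0.04, within counting error.

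**Figure D2:**
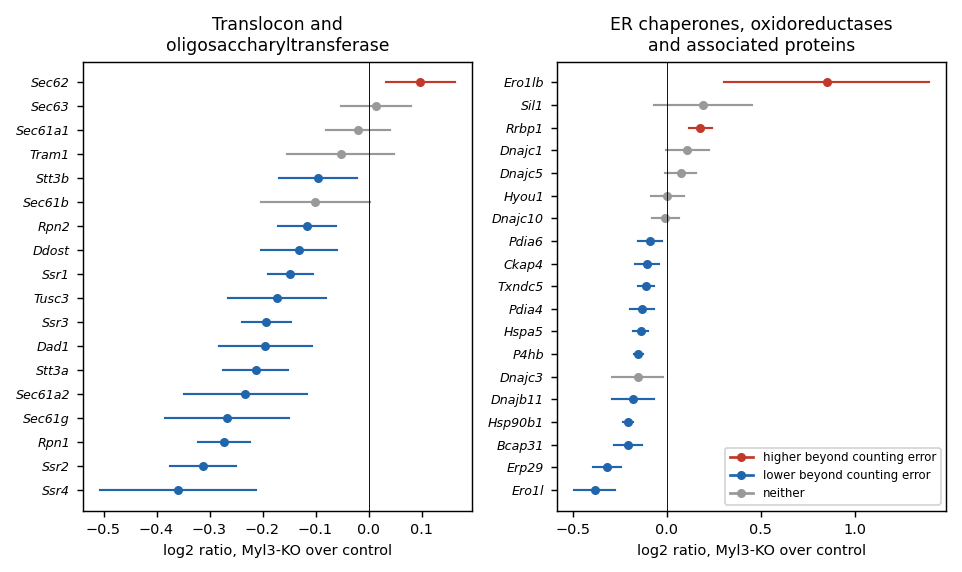
Log2 ratio of *Myl3*-KO over control for the translocation and oligosaccharyltransferase genes (left) and for the ER chaperones, oxidoreductases and associated proteins (right). Points are 1 gene each, lines are 95% counting intervals, and colors give the exact binomial test. All 7 oligosaccharyltransferase and 4 TRAP genes lie left of 0, as do *Hspa5* at -0.14 and *Hsp90b1* at -0.21, while *Ero1lb* stands alone at the right.

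Glycoproteins fold in cycles on calnexin and calreticulin, and the genes of this cycle divided between both directions. The lectin chaperones themselves were lower, *Canx* with 11072 counts in control cells and 7441 in *Myl3*-KO cells (-0.19, interval -0.23 to -0.14) and *Calr* with 15356 and 10993 (-0.10). *Mogs*, which trims the first glucose, was lower (-0.20), whereas *Ganab* (0.07) and *Prkcsh* (0.14), the subunits of the next glucosidase, were higher. *Uggt1*, the folding sensor that returns glycoproteins to the cycle, was higher as well (4650 and 3798 counts, 0.09). Among genes of at least 100 counts, the extremes of the group were the mannosidases *Man1a* (160 and 89 counts, -0.46, interval -0.85 to -0.08) and *Man1b1* (2858 and 2421, 0.15). In all, 4 of the 14 genes tested were higher and 5 lower beyond counting error (28.6% and 35.7%, against 18.6% and 16.8% of all genes tested). Among the 11 of 1000 or more counts, 4 were higher and 4 lower (36.4% each), against 24% and 27.3% of such genes. After the GC and length subtraction 1 of the 14 genes was higher, *Ganab* (0.06), and 3 were lower, *Canx* (-0.10), *Mogs* (-0.20) and *Lman2* (-0.16). *Calr* (-0.03), *Pdia3* (-0.02) and *Man1a* (-0.43) were then within counting error. *Prkcsh* and *Man1b1* lay at 0.00 and *Uggt1* at -0.01, with 11 of the 14 genes below 0.

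The 7 tested genes with an ERSE in their promoter showed no common rise in *Myl3*-KO. *Hspa5*, *Hsp90b1*, *Calr*, *Canx* and *Pdia6* were lower beyond counting error, *Dnajc3* was within it, and *Syvn1* was higher. Their log2 ratios ran from -0.21 to 0.23. Of the 2 genes with ERSE-II, *Dnajb11* was lower and *Herpud1* higher. A further sequence searched, TGACGTGG (UPRE), was in 6 ER genes, in 3.80% of the ER gene promoters against 0.676% of all promoters. Of these 6 genes, 4 were lower, 0 higher and 2 within counting error. The presence of these letters is a description of the promoter, and binding was not measured.

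COPII vesicles carry folded cargo to the Golgi, and the coat genes diverged within the complex. *Sar1b*, a GTPase that starts the coat, had 1380 counts in control cells and 807 in *Myl3*-KO cells (-0.39, interval -0.52 to -0.26, 1.31-fold lower). *Sar1a*, its paralog, was lower by less (-0.11), as were the inner coat genes *Sec23a* (-0.24) and *Sec23b* (-0.19). In the outer coat, *Sec13* was lower (3475 and 2086 counts, -0.35), whereas *Sec31a*, which forms the cage with Sec13, was higher (7247 and 6633 counts, 0.26, interval 0.21 to 0.31). *Sec24c*, a cargo adaptor (0.24), and *Preb*, the exchange factor for Sar1 (0.19), were also higher, although *Preb* lay at 0.08, within counting error, after the GC and length subtraction. In total 3 of 12 genes were higher and 5 lower (25% and 41.7%, against 18.6% and 16.8% of all genes tested). Among the 11 of 1000 or more counts these were 27.3% and 45.5%, against 24% and 27.3% of such genes. *Sec31b* had a ratio of 0.83 from only 11 and 15 counts, within counting error. The GC and length subtraction left 2 of the 12 genes higher and 6 lower, with *Sec24d* (-0.12) now among the lower. It moved the median of the group from -0.02 to -0.10. The sequence TGCCACGT, recognized by the CREB3L family, was in the promoters of 8 ER genes, 6 of them COPII genes (*Sar1a*, *Sec13*, *Sec23a*, *Sec24c*, *Sec24d* and *Sec31a*), and in 0.612% of all promoters. Of these 8 genes, 4 were lower and 2 higher.

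ERAD begins in the ER membrane, and its membrane and lumenal genes had the median ratio nearest to 0 of all groups. Of 23 genes tested, 5 were higher and 3 lower (21.7% and 13.0%, against 18.6% and 16.8% of all genes tested). Among the 17 of 1000 or more counts, 5 were higher and 2 lower (29.4% and 11.8%), against 24% and 27.3% of such genes. The ubiquitin ligase *Syvn1* (HRD1) had 987 counts in control cells and 887 in *Myl3*-KO cells (0.23, interval 0.10 to 0.36). Its partner *Sel1l* (1403 and 1185 counts, 0.14), the lectin *Os9* (2641 and 2338, 0.21) and *Herpud1* (949 and 815, 0.17) were higher too. With *Erlec1* (0.14), *Derl1* (-0.12) and *Derl2* (-0.11), which were within counting error, this complex had 4 of 7 genes higher and 0 lower, in a grouping made after the values were seen. Another membrane ligase, *Rnf185*, gave the largest ratio of the group (746 and 673 counts, 0.24), and the conjugating enzyme *Ube2j2* the smallest (319 and 195, -0.32). The conjugating enzymes *Ube2g1* (-0.24) and *Ube2g2* (-0.21) were lower as well. After the GC and length subtraction, *Os9* (0.21) and *Rnf185* (0.31) stayed beyond counting error and *Erlec1* (0.25) passed it. *Syvn1* (0.09) and *Sel1l* (0.03) then lost it, and *Herpud1* did so with its ratio at 0.16 and an adjusted p of 0.0561 in the exact binomial test.

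On the cytosolic side of ERAD, 8 of 23 genes tested were lower and 1 higher (34.8% and 4.35%, against 16.8% and 18.6% of all genes tested). Among the 18 of 1000 or more counts these were 44.4% and 5.56%, against 27.3% and 24% of such genes. *Vcp*, the ATPase that pulls proteins out of the membrane, had 15829 counts in control cells and 11571 in *Myl3*-KO cells (-0.07), but 43.9% of its 31-base words occur in other genes. Its cofactors *Nsfl1c* (3507 and 2285 counts, -0.23, interval -0.31 to -0.16) and *Plaa* (-0.20) were lower, while *Nploc4* (-0.01) and *Ufd1* (-0.04) were within counting error. After the GC and length subtraction *Nploc4* (-0.16) and *Ubqln4* (-0.12) were lower beyond counting error. The shuttle factors *Rad23b* (-0.19) and *Ubqln1* (-0.13), which deliver chains to the proteasome, the ubiquitin ligase subunits *Skp1a* (-0.16) and *Rbx1* (-0.15), and the conjugating enzyme *Ube2d3* (-0.17) were also lower. The ligase *Ube4b* was the gene higher (0.16), and after the GC and length subtraction it lay at 0.06, within counting error. *Skp1a* (-0.05) and *Rbx1* (-0.07) were then within it too, while *Ube2d1* (0.22) and *Ubqln2* (0.15) were higher. The 23 genes then had 2 higher and 8 lower. *Fbxo6*, a glycoprotein-binding F-box gene, had the largest ratio of the group at 0.17 from 382 and 328 counts, and was within counting error. *Fbxo2*, its neuronal relative, had the lowest ratio of all ER genes, -0.71, but its interval of -1.74 to 0.25 spans 0.

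The cytosolic chaperones of the pathway held its most abundant gene. Per length, *Hsp90ab1* had the highest level of all ER genes, 1006 FPKM in control cells and 1140 in *Myl3*-KO cells. It was followed by *P4hb* (580 and 523 FPKM), *Hsp90b1* (528 and 463), *Calr* (399 and 373) and *Pdia3* (348 and 327). The count ratio of *Hsp90ab1* was 0.18 (44657 and 38653 counts), while *Hsp90aa1*, the stress-inducible Hsp90, lay at -0.24 (19311 and 12502 counts). Of the 31-base words of *Hsp90aa1*, 51.4% occur in other genes, so its count is uncertain. *Dnajb2* (0.27) and the small heat shock gene *Cryab* (0.23) were higher, and *Dnaja2* (-0.21), *Dnaja1* (-0.11) and *Hsph1* (-0.10) lower. From the FPKM values the ratio of *Dnaja1* was -0.01, and this gene overlaps *Smu1*. After the GC and length subtraction *Dnajb2* lay at 0.12, within counting error. In total 3 of 16 genes were higher and 4 lower (18.75% and 25%, against 18.6% and 16.8% of all genes tested). Among the 11 of 1000 or more counts these were 27.3% and 36.4%, against 24% and 27.3% of such genes. *Hspa1b*, a classical heat shock gene, had 115 and 88.4 counts, a ratio of 0.00, and shares 68% of its words with other genes, mainly *Hspa1a*.

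**Figure D3:**
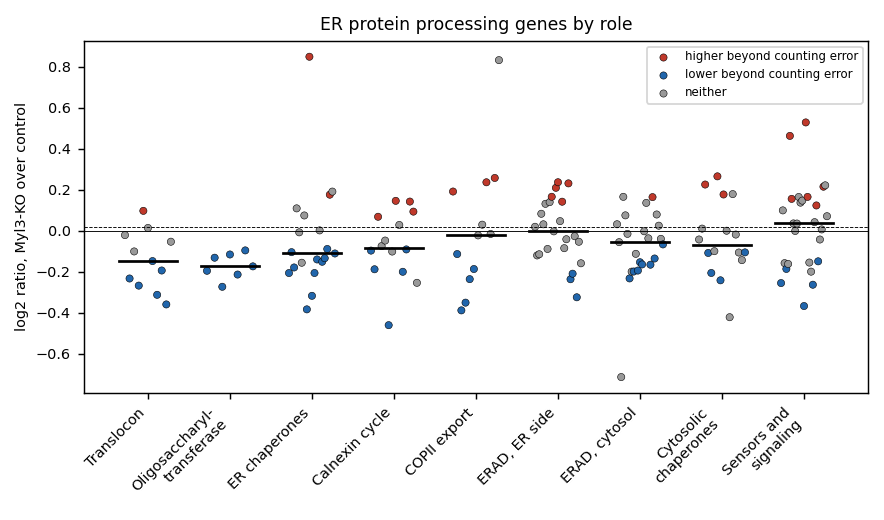
Log2 ratio of *Myl3*-KO over control for the 152 ER genes tested, by role. Points are 1 gene each, thick bars are medians, the dashed line is the median of all genes tested (0.02), and colors give the exact binomial test. The medians are lowest for oligosaccharyltransferase (-0.17) and the translocon (-0.15) and highest for sensors and signaling (0.04).

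Among the sensors of ER stress, *Ern1* stood apart. *Ern1* encodes IRE1, the kinase and RNase that splices *Xbp1* mRNA, and it had 1005 counts in control cells and 1110 in *Myl3*-KO cells (0.53, interval 0.40 to 0.65, 1.44-fold higher, adjusted p = 1.23e-15, exact binomial test). After the subtraction by GC content and length its ratio was 0.42, and from the FPKM values, 9.11 and 12.3, it was 0.44. The other sensors were within counting error. *Eif2ak3*, which encodes PERK, had 924 and 778 counts (0.14, interval -0.00 to 0.28), *Atf6* 812 and 666 (0.10) and *Atf6b* 736 and 505 (-0.16). *Wfs1*, a membrane protein that restrains ATF6, lay at 0.22 (373 and 333 counts), also within it.

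The transcription factors and feedback genes below the sensors were not higher beyond counting error. *Xbp1* had 909 counts in control cells and 731 in *Myl3*-KO cells (0.07, interval -0.07 to 0.21), and gene counts do not separate its spliced form. *Ddit3*, which encodes the stress factor CHOP, had 366 and 280 counts, a ratio of 0.00 with an interval from -0.23 to 0.23. It overlaps *Mars*. *Ppp1r15a*, the phosphatase subunit that CHOP raises to restart translation, had 394 and 303 counts (0.01, interval -0.21 to 0.23). *Atf4*, the transcription factor translated when eIF2α is phosphorylated, was lower, with 4495 and 2883 counts (-0.25, interval -0.32 to -0.19). *Eif2s1*, which encodes eIF2α itself, was the lowest gene of the group (2408 and 1429 counts, -0.37, interval -0.46 to -0.27). The 4 eIF2α kinases, *Eif2ak1* (0.04), *Eif2ak2* (0.17), *Eif2ak3* and *Eif2ak4* (0.15), lay above 0 without passing the test.

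Of the genes downstream of IRE1 toward the JNK kinases, *Traf2*, its adaptor, was higher (961 and 854 counts, 0.22) as was *Map2k7* (1088 and 934, 0.17), and *Mapk8*, which encodes JNK1, was lower (1063 and 678, -0.26). *Mapk9* lay at 0.04. *Map3k5* (16 and 11 counts, -0.15) and *Mapk10* (24 and 16, -0.20) were low and within counting error. The proteases that release ATF6 divided, *Mbtps1* being higher (4289 and 3577 counts, 0.12) and *Mbtps2* lower (1447 and 999, -0.15), the latter overlapping *Yy2*. Of the genes of ER-linked cell death, the calpains *Capn1* (362 and 382 counts, 0.46, interval 0.25 to 0.67) and *Capn2* (3315 and 2827, 0.16) were higher and *Bak1* was lower (1195 and 804, -0.19). *Casp12* lay at 0.04 and *Bcl2*, with 19 and 13 counts, at -0.16. The antioxidant factor *Nfe2l2*, a PERK substrate, lay at -0.04. In this group of 27 genes, 6 were higher and 5 lower beyond counting error (22.2% and 18.5%), which is near the 18.6% and 16.8% of all genes tested. Among the 20 of 1000 or more counts, 5 were higher and 5 lower (25% each), near the 24% and 27.3% of such genes. After the GC and length subtraction 4 of the 27 were higher and 4 lower. *Mbtps1* (0.02), *Mbtps2* (-0.12), *Map2k7* (0.02) and *Capn2* (0.05) were then within counting error, and *Eif2ak2* (0.25) was higher.

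**Figure D4:**
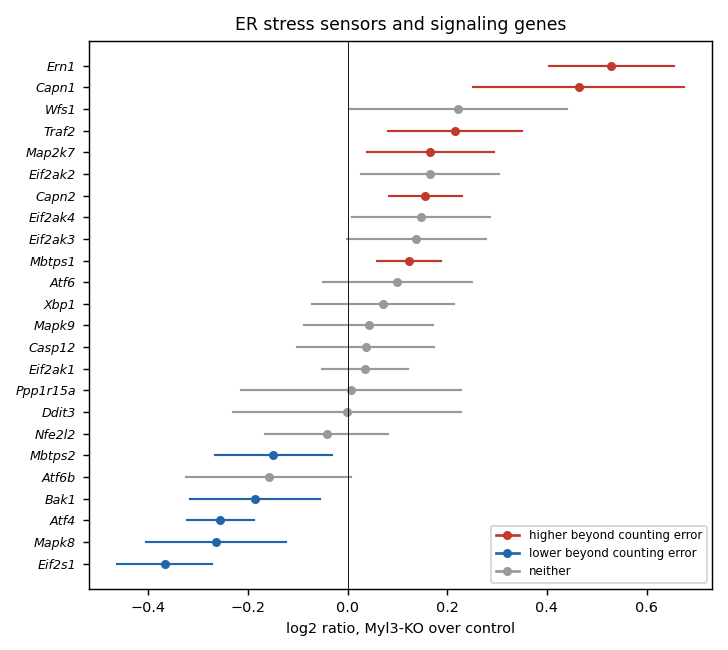
Log2 ratio of *Myl3*-KO over control for the 24 ER stress sensor and signaling genes of 100 or more counts in all. Points are 1 gene each, lines are 95% counting intervals, and colors give the exact binomial test. *Ern1* (0.53) and *Capn1* (0.46) lie farthest to the right and *Eif2s1* (-0.37) farthest to the left, while *Ddit3* and *Ppp1r15a* lie at 0.

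Outside the pathway annotation, 51 further genes of the unfolded protein response, the integrated stress response and ER entry were tested, and 10 were higher and 16 lower beyond counting error. These are 19.6% and 31.4% of the list, against 18.6% and 16.8% of all genes tested, and 1 was called higher and 3 lower (1.96% and 5.88%, against 3.14% and 0.925%). Among the 33 of 1000 or more counts, 6 were higher and 12 lower (18.2% and 36.4%), against 24% and 27.3% of such genes. The median log2 ratio of the 51 genes was -0.04. *Trib3*, a pseudokinase, was called lower, with 103 counts in control cells and 43 in *Myl3*-KO cells (-0.87, interval -1.42 to -0.35). *Chac1*, whose product degrades glutathione, was called lower too, with 169 and 83 counts (-0.64, interval -1.04 to -0.25). *Sec11c*, a subunit of signal peptidase, was called lower as well (184 and 79 counts, -0.83). *Asns*, asparagine synthetase, had 2547 and 1439 counts (-0.44, interval -0.53 to -0.34). *Gadd45a*, a growth arrest gene, was the 1 gene called higher (147 and 172 counts, 0.61). *Atf3*, another stress factor, had 53 and 36 counts (-0.17) and was within counting error. Of other stress genes in the list, *Nupr1* (470 and 432 counts, 0.26) was higher and *Atf5* (292 and 172, -0.38) lower beyond counting error. *Ddit4* (1432 and 1152, 0.07) was within it.

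*Manf*, a secreted stress factor, was lower (2014 and 1259 counts, -0.29) and so was *Creld2* (716 and 472, -0.22). *Sdf2l1* (266 and 196 counts, -0.05) and *Dnajb9*, a target of spliced XBP1 (291 and 232, 0.06), were within counting error. The folding isomerase *Fkbp14* (1424 and 1260 counts, 0.21) and *Tor3a*, an ER ATPase (319 and 330, 0.43), were higher. Of the ER-bound transcription factors, *Creb3* lay at 0.09 (546 and 445 counts), within counting error, whereas *Creb3l1* (530 and 512 counts, 0.34) and *Creb3l2* (1946 and 1936, 0.38) were higher, as was *Crebrf* (426 and 444, 0.45). The genes from *Fkbp14* on were named after their values were seen.

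**Figure D5:**
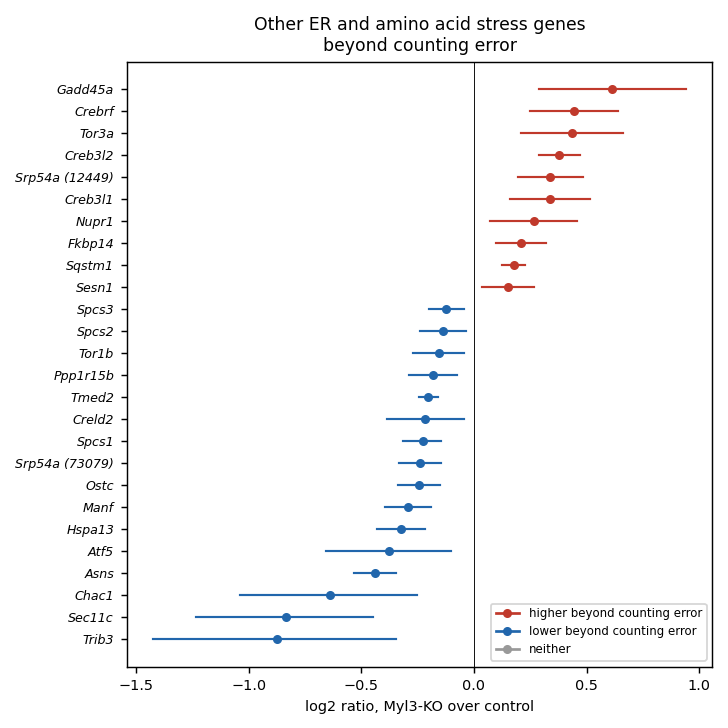
Log2 ratio of *Myl3*-KO over control for the 26 of 51 further stress and ER entry genes that were beyond counting error. Points are 1 gene each and lines are 95% counting intervals, and *Srp54a* is listed under 2 identifiers, told apart by their last digits. *Trib3* (-0.87), *Sec11c* (-0.83) and *Chac1* (-0.64) lie farthest to the left and *Gadd45a* (0.61) farthest to the right.

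Base composition moved with these ratios. The median over all genes tested was -0.06, 0.02 and 0.10 in the bins of low, middle and high GC content, and that of the ER genes was -0.15, -0.04 and 0.01. Exon length gave -0.05, 0.02 and 0.06 over all genes, from short to long. After subtraction of the bin medians, 16 ER genes were higher and 51 lower beyond counting error, sharing 12 and 45 with those above. *Calr*, *Pdia3*, *Pdia4* and *Dnajb11* among the lumenal genes were then within counting error, whereas *Hspa5* (-0.06) and *Hsp90b1* (-0.12) were still lower. All 4 TRAP genes and 6 of the 7 oligosaccharyltransferase genes, without *Tusc3*, were also still lower. *Ern1*, *Capn1*, *Traf2*, *Ero1lb* and *Sec31a* were still higher. The share of fibroblast markers was 1.79% and 2.14% beside these results, with *Fn1* higher (53988 and 60449 counts) and *Dcn* lower (631 and 155), and its part in them was not tested.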

How the data were processed

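RNA was sequenced from 1 control and 1 *Myl3*-KO library of mouse primary chondrocytes. The authors deposited, for each gene, an expected count, not normalized, and an FPKM value, which scales reads by gene length and library. The control column, headed NC, was read as control because the other is headed KO. The submitters' processing notes name GRCm38 and mm10, and the aligner and counter are not given in the sources used here. The labels name a SMARTER kit, and the study's methods oligo beads with random-primed cDNA.

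The exact binomial test and the 95% Clopper-Pearson intervals used rounded expected counts, and the log2 ratios used them unrounded, with values under 3 raised to 3. This floor equals 0.170 CPM for the control and 0.223 CPM for *Myl3*-KO. Loci, GC content, overlaps and shared 31-base words came from GENCODE M21, which held 162 of 162 ER genes, of which 25 overlap another counted gene and 3 share over 50% of their words. Promoters came from RefSeq.

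The members, role groups and lists were chosen with earlier results of these data known. Named were all called genes, all ER chaperone and sensor genes, the 5 of highest FPKM, the extremes of each other role with at least 100 counts, called genes of the further stress list and 8 fixed ones (*Atf3*, *Trib3*, *Asns*, *Chac1*, *Creld2*, *Manf*, *Sdf2l1*, *Dnajb9*). Other names were chosen after their values were seen. Values of 1 annotated gene are not reported. Alternatives were TMM factors, DESeq2 size factors, other count filters, other fold limits, edgeR's exact test with an assumed coefficient of variation of 0.2, FPKM ratios, 1 added count and, chosen after seeing the data, the GC and length subtraction. The test was tried on simulated data. Python 3.11.15 (numpy 2.4.6, pandas 2.3.3, scipy 1.17.1, matplotlib 3.10.9) and R 4.3.3 (edgeR 4.0.16, DESeq2 1.42.0) were used.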

Additional observations from a re-analysis of the deposited data

How the results depend on the processing

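With 1 library per genotype no difference could be set against replicates. No paired analysis was possible because each genotype has 1 library. Of the ER genes, 0 were called higher with a limit of 2-fold, and 3 were called higher and 7 lower with a log2 limit of 0.32. In size alone, without the test, 8.55% of the ER genes and 24.3% of all genes tested reached a log2 ratio of 0.32. A size of 2-fold was reached by 0% and 3.35%. By the FPKM ratio, which has no test, 2 ER genes were higher (*Ero1lb*, *Sec31b*) and 2 lower (*Fbxo2*, *Mapk10*) by 1.5-fold. The edgeR exact test with an assumed coefficient of variation of 0.2 gave 0 called in either direction, and 0 higher and 0 lower at any size, with 4 of the 12431 genes tested past an adjusted p of 0.05. Subtracting the GC and length medians left 16 ER genes higher beyond counting error, against 25. TMM factors gave 21 higher and 59 lower, DESeq2 size factors 21 and 58, no count filter 24 and 53, and at least 10 counts in each library 26 and 55, each with 1 called higher and 0 lower. The median over all ER genes stayed negative under every alternative that gave one, from -0.07 with TMM factors to -0.04 by the FPKM ratio. The median of the membrane and lumenal ERAD genes, -0.00, was 0.01 with no count filter and 0.02 after the GC and length subtraction.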
